A study of Mus musculus with 2 samples.

Results

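The genes described here are those of sterol regulatory element-binding protein (SREBP) control and of cholesterol and fatty acid synthesis, in embryonic stem cells of the mouse labelled as overexpressing Pc4 or as a control. They were picked by symbol from a fixed list of 29 names, and all 29 stood in the count table, out of 24061 rows. The set holds 5 regulators, 17 enzymes of the sterol path, 1 sterol carrier and 6 enzymes of fatty acid synthesis and modification. Each of the 29 had at least 20 counts summed over both libraries, the minimum for a gene to count as measured. No measured value enters the rule, but other results of these data were known when the list was drawn up.

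The library labelled Pc4-OE came from C57BL/6 embryonic stem cells at passages 24 to 37, and the library labelled control from the same strain at passages 17 to 23, so passage and label cannot be told apart. Pc4 is the single-stranded DNA-binding coactivator encoded by Sub1, and 3 lines were made with a lentivirus that also carries the yellow fluorescent marker Venus. Which of them gave the 1 library is not stated. Both cultures grew on mouse embryonic fibroblast feeders in high-glucose medium with serum replacement and leukaemia inhibitory factor, and removal of the feeders before RNA extraction is not described. With 1 library a label there is no spread between cultures, so every difference below is between 2 libraries and carries no p-value.

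Cells make cholesterol from acetyl-CoA through mevalonate, farnesyl diphosphate and squalene, and make fatty acids from the same acetyl-CoA through malonyl-CoA. SREBP proteins are made as membrane precursors in the endoplasmic reticulum, where SCAP escorts them to the Golgi for cleavage when sterols are low and INSIG proteins hold them back when sterols are high. The cleaved factor then raises transcription of enzymes of both paths, SREBP-2 mainly those of sterols and SREBP-1 mainly those of fatty acids. Since the precursor is controlled by cleavage, the mRNA of a regulator does not report the amount of active factor.

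The deposited values were raw read counts, which summed to 10194783 in the Pc4-OE-labelled library and 10571463 in the control-labelled one. They are given as CPM, a count divided by the scaled size of its library, and ratios are Pc4-OE over control with a 95% interval that covers counting error alone. Sub1 itself went against the label, at 235 CPM in the Pc4-OE-labelled library and 530 CPM in the control-labelled one, so each library goes by its label here and each direction is that of the labels. Markers of other cells also differed. All 22 fibroblast markers were at least 1.5-fold higher in the Pc4-OE-labelled library, where they summed to 18928 CPM, against 7363 CPM in the control-labelled library. Of 18 macrophage markers 17 were, with sums of 667 CPM in the Pc4-OE-labelled library and 236 CPM in the control-labelled one. By the same limit 18.8% of measured genes were higher. The 10 stem cell markers summed to 4912 CPM in the Pc4-OE-labelled library and 6608 CPM in the control-labelled library, with a median log2 ratio of -0.13. The order-statistic interval of this median was wide, from -0.93 to 0.22, and single markers ran from -2.05 to 0.24. In such a mixed culture, fewer cells of a type and less RNA per cell cannot be told apart.

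SREBP works at promoters together with NF-Y, which binds the CCAAT box, and with Sp1, which binds the GC box. The RefSeq promoter table (GRCm38.p6) held 23 of the 29 genes, all but Fdps, Fdft1, Sqle, Stard4, Scd1 and Scd2. Shown here are the 250 bases before the most upstream listed start of 5 genes: Hmgcs1, the only gene of the 23 with the sterol element searched, Ebp and Mvd, lower genes of the late and the early sterol steps, the lower fatty acid gene Acly, and Scap, the highest gene by its ratio. They lie at chr13:119690101-119690350 (plus strand), chrX:8193513-8193762 (minus strand), chr8:122443423-122443672 (minus strand), chr11:100528001-100528250 (minus strand) and chr9:110333038-110333287 (plus strand). Capitals mark matches on either strand to the sterol regulatory element core TCACNCCAC, the NF-Y box CCAAT, the Sp1 box GGGCGG or the E-box CACGTG.
Hmgcs1: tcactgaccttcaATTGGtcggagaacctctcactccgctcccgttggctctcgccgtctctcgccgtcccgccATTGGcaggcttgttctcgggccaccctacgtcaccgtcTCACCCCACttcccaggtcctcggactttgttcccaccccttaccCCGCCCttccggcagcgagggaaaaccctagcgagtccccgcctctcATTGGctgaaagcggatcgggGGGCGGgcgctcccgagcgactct
Ebp: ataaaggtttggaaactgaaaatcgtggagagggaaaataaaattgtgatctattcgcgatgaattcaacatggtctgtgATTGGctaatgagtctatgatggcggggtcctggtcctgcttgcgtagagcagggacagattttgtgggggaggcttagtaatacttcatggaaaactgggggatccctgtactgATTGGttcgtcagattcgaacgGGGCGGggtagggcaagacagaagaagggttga
Mvd: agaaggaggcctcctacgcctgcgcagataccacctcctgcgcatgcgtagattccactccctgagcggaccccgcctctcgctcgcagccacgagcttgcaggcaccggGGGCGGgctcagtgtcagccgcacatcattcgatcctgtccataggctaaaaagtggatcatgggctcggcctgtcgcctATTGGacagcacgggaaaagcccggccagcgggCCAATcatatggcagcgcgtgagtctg
Acly: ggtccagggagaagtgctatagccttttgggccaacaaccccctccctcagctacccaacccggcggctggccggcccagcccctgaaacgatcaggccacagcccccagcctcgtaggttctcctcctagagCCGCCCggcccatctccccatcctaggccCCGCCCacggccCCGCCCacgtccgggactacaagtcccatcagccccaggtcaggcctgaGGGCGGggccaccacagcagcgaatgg
Scap: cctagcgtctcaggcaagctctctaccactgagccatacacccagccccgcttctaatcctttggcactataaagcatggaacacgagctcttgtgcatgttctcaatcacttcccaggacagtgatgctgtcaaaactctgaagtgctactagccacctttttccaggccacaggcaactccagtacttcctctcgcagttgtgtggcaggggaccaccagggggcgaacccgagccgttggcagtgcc

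The 23 genes have 31 listed starts, and a gene was counted for a motif when the window of any of its starts held it, in the table as a whole too. By this count the CCAAT box was found for 19 of the 23 genes, against 37.5% of all 27025 genes in the promoter table and 40.5% of the 11225 of them measured here. The 4 without it were Acaca, Acly, Elovl6 and Scap, so 3 of these 4 encode fatty acid enzymes and the other the SREBP escort. The only Acaca window, from chr11:84195188, lies inside the gene, which starts at 84129635. The bases before that gene start were therefore not searched. Among the enzymes of the sterol path that the table held, each had at least 1 CCAAT box. The GC box was found for 19 of the 23 genes, against 63.5% of measured genes, and the E-box for 5, against 9.89%. The median GC content of the windows was 62.8% for the 23 genes and 59.6% for measured genes, and its part in the GC box count was not tested. The sterol element core was found in Hmgcs1 alone, from base -137 to base -129 before the start, against 1.22% of measured genes. None of these matches overlapped a match to another of the 4 motifs. A second listed start of Scap had a GC box and an E-box, and the window printed for it held no match. Matching letters describe the sequence and do not show binding.

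Genes of both synthesis paths were lower together in the library labelled Pc4-OE. Of the 23 enzymes, 22 had a ratio below 1, 21 of these with an interval that excludes 1, and Fdft1 was level. Among the 21, 16 stood at least 1.5-fold lower, while 0 of the 23 passed that limit upward. Of all 14213 measured genes, 50.7% had a ratio below 1, and 33.1% were lower and 31.2% higher with such an interval. By the 1.5-fold limit with the same demand on the interval, 13.2% were lower and 18.8% higher. At the 2-fold limit, Sqle, Fasn, Scd2 and Ebp were lower, 4 of the 29 genes, against 4.02% of measured genes, and 0 of the 29 were higher, against 11.8%. The median log2 ratio was -0.65 over the 29 genes and -0.75 over the 23 enzymes, against -0.01 over all measured genes. The regulators did not share this direction, with a median of 0.01.

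**Figure D1:**
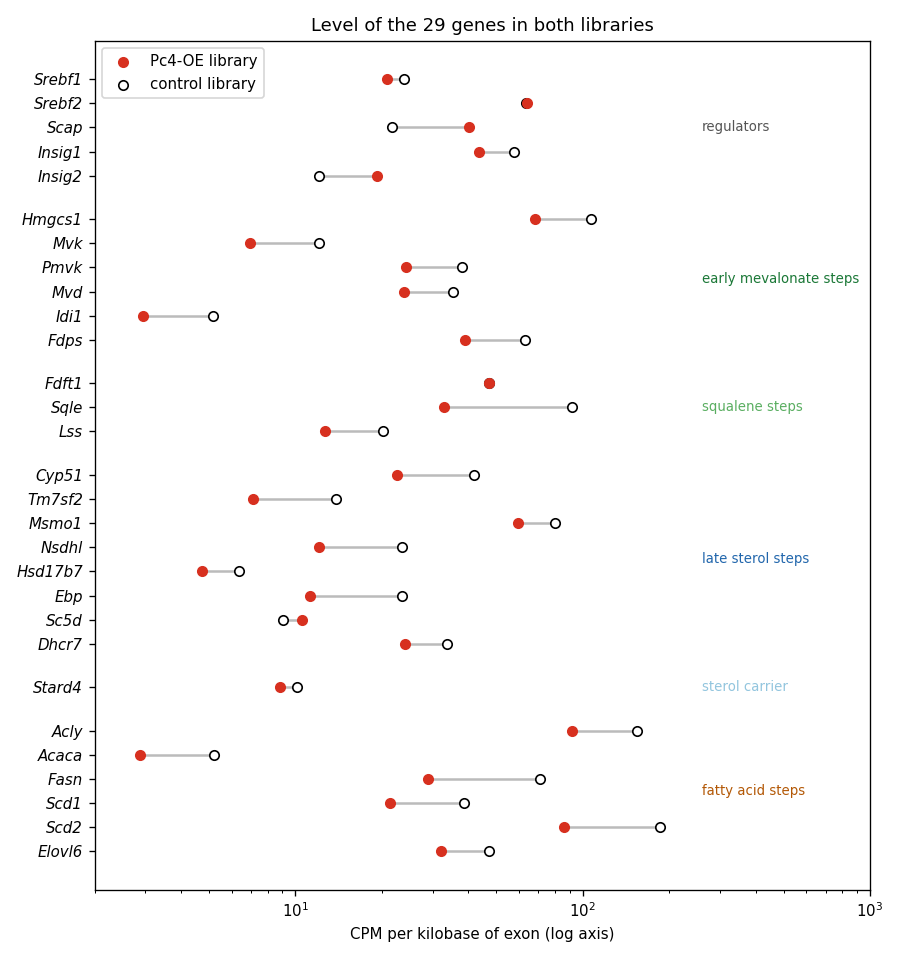
Level of each of the 29 genes as CPM per kilobase of exon on a log axis, with filled red points for the library labelled Pc4-OE and open points for the library labelled control. The red point lies left of the open one for 22 of 23 enzymes, by a margin too small to see for Fdft1, and right of it for Sc5d, Scap, Insig2 and, by a margin too small to see, Srebf2.

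The 5 regulators split by gene. Srebf2, which encodes SREBP-2, had 3351 counts in the Pc4-OE-labelled library and 3348 in the control-labelled one, or 324 and 322 CPM, a log2 ratio of 0.01 (interval -0.06 to 0.08). Srebf1, which encodes both SREBP-1 isoforms, had 924 counts (89.3 CPM) in the Pc4-OE-labelled library, against 1071 (103 CPM) in the control-labelled library, and its log2 ratio was -0.20 (-0.33 to -0.08). The deposited table has 1 row for the gene, so the isoforms were not separated. Per exon length, Srebf2 was 3.07 times as abundant as Srebf1 in the Pc4-OE-labelled library and 2.65 times in the control-labelled one.

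Scap and Insig2, which act on the precursor in opposite ways, were the only 2 of the 29 genes at least 1.5-fold higher. This is 6.90% of the 29, below the 18.8% of measured genes. Scap, the escort, stood at 170 CPM (1755 counts) in the Pc4-OE-labelled library, against 91.4 CPM (952 counts) in the control-labelled one, 1.85-fold higher (1.71 to 2.01). Exons on the other strand overlap 18.6% of the exon bases of Scap, and the strand setting of the counting is not given in the sources used here. Insig2, a retention protein of the endoplasmic reticulum, had 56.6 CPM (586 counts) in the Pc4-OE-labelled library and 35.5 CPM (370 counts) in the control-labelled library, 1.59-fold higher (1.40 to 1.82). Its relative Insig1, known as an SREBP target as well as a retention protein, went the other way, with 118 CPM (1218 counts) in the Pc4-OE-labelled library and 155 CPM (1618 counts) in the control-labelled one, a log2 ratio of -0.40 (-0.51 to -0.29). Insig2 therefore held 30.5% of the summed level of both Insig genes per exon length in the Pc4-OE-labelled library, against 17.3% in the control-labelled library. By counts alone its share was 32.5% (exact binomial interval 30.3 to 34.7) in the Pc4-OE-labelled library and 18.6% (16.9 to 20.4) in the control-labelled one.

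All 6 genes of the early mevalonate steps were lower, within a narrow band of log2 ratios from -0.82 to -0.57. Each interval excluded 1, and 33.1% of measured genes were lower in this way. Hmgcs1, the cytosolic HMG-CoA synthase, had 238 CPM (2460 counts) in the Pc4-OE-labelled library and 373 CPM (3881 counts) in the control-labelled library, 1.57-fold lower (1.49 to 1.65). The mevalonate kinase gene Mvk was at 13.9 CPM in the Pc4-OE-labelled library and at 24.1 CPM in the control-labelled one, 1.73-fold lower (1.41 to 2.14). Pmvk, phosphomevalonate kinase, followed with 41.4 CPM in the Pc4-OE-labelled library against 64.9 CPM in the control-labelled library (1.57-fold lower, 1.39 to 1.77). These intervals overlap, so the counting error does not order the 3 genes.

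Mvd, the decarboxylase that makes isopentenyl diphosphate, was just inside the limit at 41.9 CPM in the Pc4-OE-labelled library and 62.1 CPM in the control-labelled library, 1.48-fold lower (1.31 to 1.68). Idi1, the isomerase, was the least counted of the 29 genes, with 92 counts (8.89 CPM) in the Pc4-OE-labelled library and 163 (15.7 CPM) in the control-labelled one, 1.76-fold lower (1.36 to 2.30). Fdps, farnesyl diphosphate synthase, had 56.6 CPM in the Pc4-OE-labelled library and 91.5 CPM in the control-labelled library, 1.62-fold lower (1.46 to 1.79). Of the 50-base windows of the Fdps transcripts, 64.1% also occur in transcripts of other annotated genes, and 20.0% of those of Idi1, so the counts of both depend on how shared reads were treated.

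The squalene steps held the lowest gene of the set beside one that was level. Sqle, squalene epoxidase, a rate-limiting enzyme downstream of squalene, had 90.5 CPM (937 counts) in the Pc4-OE-labelled library and 252 CPM (2627 counts) in the control-labelled one, 2.79-fold lower (2.59 to 3.01). Only 1.30% of all measured genes had a lower ratio. Fdft1, squalene synthase, which acts directly before it, had 1800 counts in the Pc4-OE-labelled library and 1811 in the control-labelled library, both 174 CPM, with a log2 ratio between -0.09 and 0.09. Sqle was thus 0.70 times as abundant as Fdft1 per exon length in the Pc4-OE-labelled library and 1.94 times as abundant in the control-labelled one. Exons of Ctsb on the other strand overlap 20.9% of the exon bases of Fdft1. Ctsb, a lysosomal protease, was at 972 CPM in the Pc4-OE-labelled library and 304 CPM in the control-labelled library, and its part in the Fdft1 value was not tested. Lss, lanosterol synthase, which closes the sterol rings, had 59.2 CPM in the Pc4-OE-labelled library against 94.2 CPM in the control-labelled library, 1.59-fold lower (1.44 to 1.76).

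Of the 8 genes of the late sterol steps, 7 were lower with an interval that excludes 1, and 4 of them by at least 1.5-fold. Of measured genes, 33.1% and 13.2% were. The median log2 ratio of the 8 genes was -0.69, with a wide order-statistic interval from -1.06 to 0.21. Ebp, the sterol isomerase, had 202 counts (19.5 CPM) in the Pc4-OE-labelled library and 425 (40.8 CPM) in the control-labelled one, 2.09-fold lower (1.76 to 2.49). The gene Nsdhl, a decarboxylating sterol dehydrogenase, was at 26.3 CPM in the Pc4-OE-labelled library and 51.1 CPM in the control-labelled library, 1.94-fold lower (1.68 to 2.26). Tm7sf2, a sterol reductase, was also 1.94-fold lower (1.56 to 2.43), with 125 counts in the Pc4-OE-labelled library and 244 in the control-labelled one. Cyp51, the lanosterol demethylase, had 89.0 CPM (921 counts) in the Pc4-OE-labelled library and 165 CPM (1719 counts) in the control-labelled library, 1.86-fold lower (1.71 to 2.01). Those 4 intervals overlap.

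The other late genes were nearer to 1. Dhcr7, the last reductase of this branch, stood at 79.4 CPM in the Pc4-OE-labelled library, against 111 CPM in the control-labelled library, a log2 ratio of -0.49 (-0.62 to -0.36). Msmo1, the methylsterol monooxygenase, had 122 CPM in the Pc4-OE-labelled library and 164 CPM in the control-labelled one, and Hsd17b7, the ketoreductase, 23.8 CPM in the Pc4-OE-labelled library and 32.2 CPM in the control-labelled one. Their log2 ratios were -0.43 and -0.44. Sc5d, the sterol desaturase, was the 1 enzyme of the 23 on the other side, with 51.1 CPM (529 counts) in the Pc4-OE-labelled library and 44.2 CPM (460 counts) in the control-labelled library, a log2 ratio of 0.21 (0.03 to 0.39). Stard4, a soluble sterol carrier and SREBP-2 target, had 46.0 CPM in the Pc4-OE-labelled library and 52.6 CPM in the control-labelled one, a log2 ratio of -0.19 (-0.37 to -0.01).

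**Figure D2:**
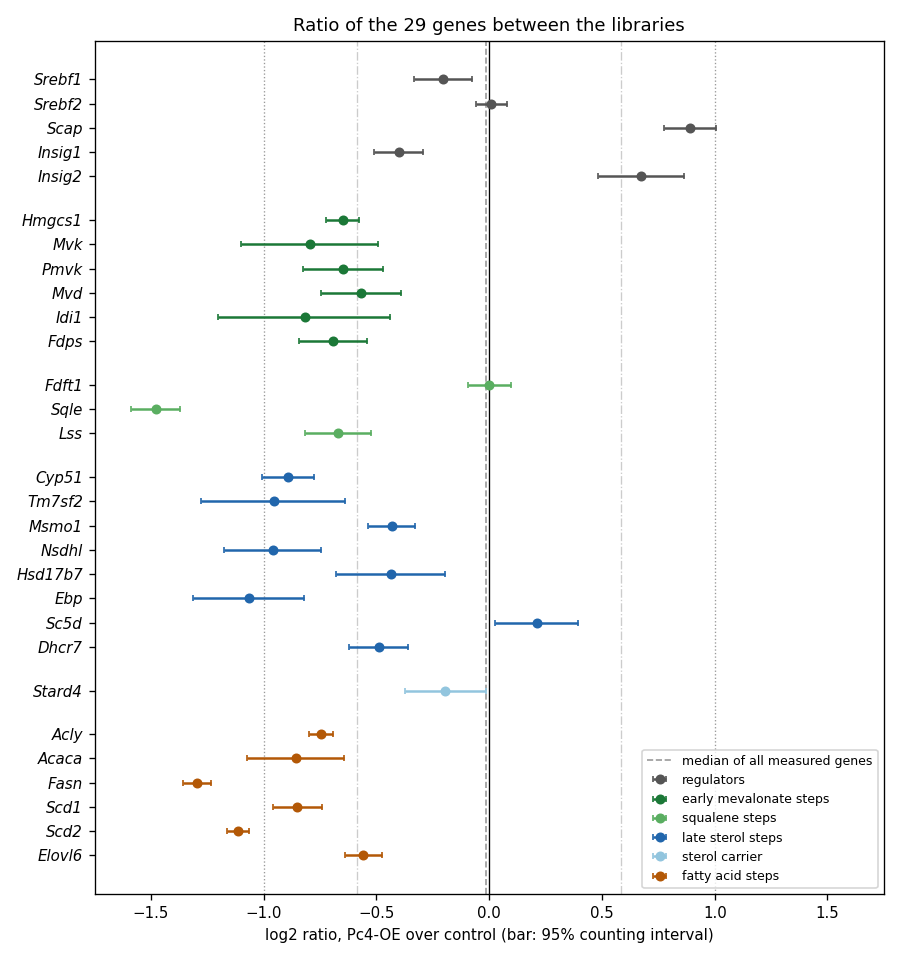
Log2 ratio of each of the 29 genes, Pc4-OE over control, with 95% counting intervals, coloured by role; dotted lines mark 2-fold, dash-dot lines 1.5-fold and the dashed line the median of all measured genes. Sqle (-1.48), Fasn (-1.30) and Scd2 (-1.11) lie farthest left, and Scap (0.89) and Insig2 (0.67) lie right of every enzyme.

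All 6 genes of fatty acid synthesis were lower with an interval that excludes 1, against 33.1% of measured genes. Fasn, fatty acid synthase, had 290 CPM (3001 counts) in the Pc4-OE-labelled library and 712 CPM (7418 counts) in the control-labelled library, 2.46-fold lower (2.35 to 2.56). Scd2, the desaturase of embryonic and neural tissue, had 468 CPM (4839 counts) in the Pc4-OE-labelled library and 1011 CPM (10527 counts) in the control-labelled one, 2.16-fold lower (2.09 to 2.24). Scd1, the related desaturase of liver and fat, was 1.80-fold lower (1.67 to 1.95), at 103 CPM in the Pc4-OE-labelled library and 186 CPM in the control-labelled library. The interval of Scd2 lies wholly below that of Scd1 on the ratio scale. Scd2 made up 80.0% of the level of both per exon length in the Pc4-OE-labelled library, against 82.8% in the control-labelled one, so it was the main desaturase in each. The Scd genes are close copies, and 4.01% of the 50-base windows of Scd2 and 4.61% of those of Scd1 occur in other annotated transcripts.

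The steps that supply Fasn were lower by less. Acly, ATP citrate lyase, the source of cytosolic acetyl-CoA for both paths, had 423 CPM (4382 counts) in the Pc4-OE-labelled library and 710 CPM (7397 counts) in the control-labelled library, 1.68-fold lower (1.62 to 1.74). Acaca, the acetyl-CoA carboxylase that commits carbon to fatty acids, was at 27.3 CPM (283 counts) in the Pc4-OE-labelled library and 49.6 CPM (516 counts) in the control-labelled one, 1.81-fold lower (1.56 to 2.10). Of its 50-base windows, 49.1% also occur in the annotated gene Gm5182, so its level is uncertain. Elovl6, which elongates the product of Fasn, had 197 CPM in the Pc4-OE-labelled library and 290 CPM in the control-labelled library, 1.47-fold lower (1.39 to 1.56). Per exon length the order of these genes was not shared between libraries: Acly (91.8 CPM per kilobase) stood above Scd2 (85.7) in the Pc4-OE-labelled library, and Scd2 (185) above Acly (154) in the control-labelled one.

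Sterol and fatty acid steps were then set side by side. The median log2 ratio was -0.67 over the 17 sterol steps, with members from -1.48 to 0.21, and -0.85 over the 6 fatty acid steps, with members from -1.30 to -0.56. The difference of the medians was 0.18, and the order-statistic intervals of the medians overlapped, from -0.89 to -0.49 for the sterol steps and from -1.30 to -0.56 for the fatty acid steps. At least 1.5-fold lower were 11 of the 17 sterol steps (64.7%) and 5 of the 6 fatty acid steps (83.3%), against 13.2% of measured genes. Mvd (1.48-fold) and Elovl6 (1.47-fold) fell just short of this limit. Summed over genes, the sterol steps held 1147 CPM in the Pc4-OE-labelled library and 1784 CPM in the control-labelled one, 1.56-fold lower. Fatty acid steps summed to 1508 CPM in the Pc4-OE-labelled library and 2960 CPM in the control-labelled library, 1.96-fold lower. Fasn, Scd2 and Acly make up most of the second sum, so it weights these genes most. They were 2.46-fold, 2.16-fold and 1.68-fold lower. Genes of a path are not replicates of a culture, and no test of this difference was possible.

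Position on the chromosome was compared because neighbouring genes on parts of chromosomes 5 and 15 differ together in these libraries. Chromosome 5, where Insig1, Mvk and Cyp51 lie, had the lowest median log2 ratio of any chromosome. It was -0.33 over 754 genes that averaged 5 CPM or more, and chromosome 15 came next at -0.13. For each gene, the median log2 ratio of the 20 nearest genes that averaged 5 CPM or more was taken. These medians ran from -0.63 to 0.26 over the 29 genes. Sqle, at chromosome 15, 59315092 to 59331193 (GRCm38), had the lowest, with 18 of its 20 neighbours below a ratio of 1, and was 0.85 below its neighbours on the log2 scale. Sub1 also lies on chromosome 15, at 11981336 to 11996038, and was not compared with its neighbours. Every one of the 23 enzymes lay below the median of its neighbours, 21 of them by at least 0.5, and the median difference was -0.81. The share of all measured genes that lie this far below their neighbours was not computed. Fdft1 (-0.07) and Sc5d (-0.02) were the 2 within 0.5, and the counting interval of each held the median of its neighbours. Scap was 1.24 above its neighbours, Insig2 0.61 above and Insig1 0.05 below. Scd1 and Scd2 lie side by side on chromosome 19 and share 19 of their 20 neighbours, and Fdps and Pmvk on chromosome 3 share 14 of 20, so these values are not independent.

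**Figure D3:**
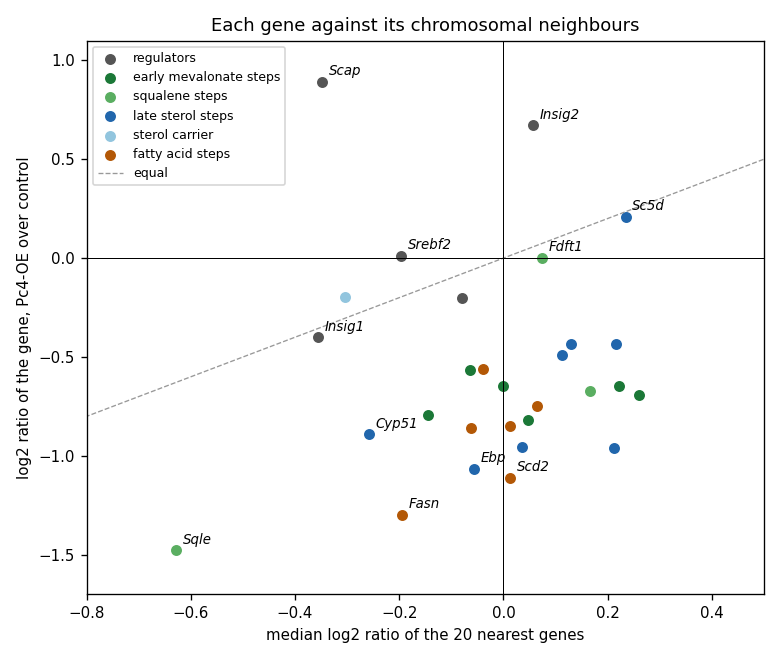
Log2 ratio of each of the 29 genes against the median log2 ratio of its 20 nearest genes on the chromosome, with a dashed line where both are equal. The 23 enzymes lie below the line, Sqle at a neighbour median of -0.63 and the others between -0.26 and 0.26, and Scap and Insig2 lie farthest above it.

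Other genes of these paths differed by list. The lists were drawn up by role, with earlier results of these data known. Their counts are read against the 13.2% of measured genes lower and 18.8% higher by the 1.5-fold limit. Of 10 genes for SREBP cleavage and turnover, the 1.5-fold limit was passed by 1 downward and 0 upward, and the median log2 ratio was -0.01. Mbtps1 and Mbtps2, the Golgi proteases that cleave SREBP, had log2 ratios of 0.02 and -0.07. Rnf139, an endoplasmic reticulum ubiquitin ligase, was the lower gene, with 36.4 CPM in the Pc4-OE-labelled library and 64.5 CPM in the control-labelled one. Of 18 measured genes of other sterol and isoprenoid steps, 5 passed the 1.5-fold limit downward and 1 upward. At any size, 9 of the 18 were lower and 6 higher with an interval that excludes 1, and the median log2 ratio was -0.14. The order-statistic interval of this median ran from -0.60 to 0.28 and held 0. Of measured genes, 33.1% were lower and 31.2% higher with an interval that excludes 1. A lean of this list to the side of the enzymes is therefore not settled. The 3 genes at least 2-fold lower were Acat2, Pdss1 and Cyb5b. Acat2, the cytosolic thiolase that makes the substrate of Hmgcs1, had 45.5 CPM (471 counts) in the Pc4-OE-labelled library and 98.2 CPM (1023 counts) in the control-labelled library, 2.16-fold lower (1.93 to 2.41). Pdss1, a subunit of the synthase of the ubiquinone side chain, was 2.19-fold lower (1.68 to 2.88) and Cyb5b, a cytochrome b5 of the outer mitochondrial membrane, 2.02-fold (1.90 to 2.16). Pgrmc1, a haem-binding membrane protein that binds CYP51, was the higher one, 1.54-fold (1.43 to 1.66).

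Of 20 measured genes of other fatty acid steps, 2 passed the 1.5-fold limit upward and 1 downward, and the median log2 ratio was 0.09. Me1, malic enzyme, a source of NADPH, had 41.0 CPM (424 counts) in the Pc4-OE-labelled library and 22.7 CPM (236 counts) in the control-labelled library, 1.81-fold higher (1.54 to 2.13). Elovl7, another elongase, was 2.03-fold higher (1.44 to 2.90) on 103 counts in the Pc4-OE-labelled library and 51 in the control-labelled one, and Scd3 was 1.73-fold lower (1.11 to 2.71) on 34 counts in the Pc4-OE-labelled library and 59 in the control-labelled one. Slc25a1, the carrier that exports citrate from mitochondria to Acly, had a log2 ratio of 0.13 and Acss2, which makes acetyl-CoA from acetate, one of -0.16.

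Genes that export, store or move sterols stood on the opposite side from the genes that make them. Of 12 measured genes, 6 passed the 1.5-fold limit upward and 0 downward, and the median log2 ratio was 0.70. Abcg1, a sterol exporter driven by the oxysterol receptors LXR, had 59.9 CPM (620 counts) in the Pc4-OE-labelled library and 19.7 CPM (205 counts) in the control-labelled library, 3.04-fold higher (2.59 to 3.58). Lipa, the lysosomal cholesteryl ester lipase, was 2.17-fold higher (1.90 to 2.47), and Npc2, a lysosomal cholesterol carrier, 1.96-fold (1.86 to 2.06), with 441 CPM in the Pc4-OE-labelled library and 225 CPM in the control-labelled one. Abca1, an exporter also driven by LXR, had a log2 ratio of 0.50 (0.39 to 0.62). Nr1h2, which encodes LXR-beta, had a ratio of 0.997, and Nr1h3, which encodes LXR-alpha, had 13 counts in the Pc4-OE-labelled library and 8 in the control-labelled one. Several of these genes are abundant in macrophages, whose markers summed to 667 CPM in the Pc4-OE-labelled library and 236 CPM in the control-labelled library and had a median log2 ratio of 2.20. The part of those cells and of fibroblasts in any of these values was not tested.

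**Figure D4:**
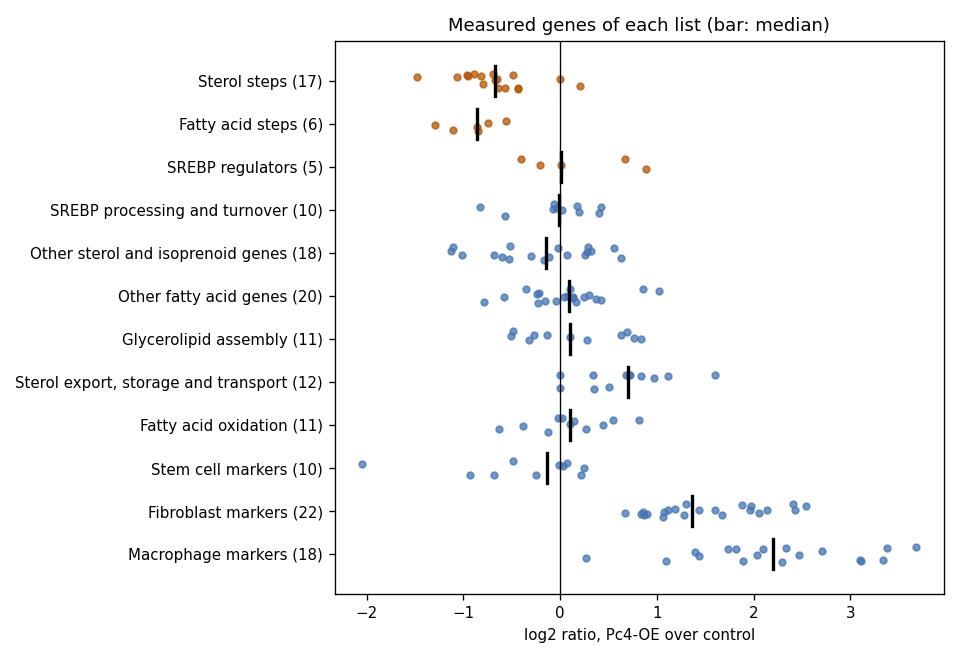
Log2 ratio of each measured gene, Pc4-OE over control, by list, with a black bar at the median and the number of genes in brackets. The sterol (-0.67) and fatty acid (-0.85) steps have the lowest medians, sterol export genes (0.70) the highest of the lipid lists, and fibroblast (1.37) and macrophage (2.20) markers lie farther right.

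Markers of fat cells, which also make fatty acids, were read too. Adipoq had 0 counts in both libraries, Plin1 1 count in the Pc4-OE-labelled library and 0 in the control-labelled one, Cidec 1 in each, and Lep 0 in the Pc4-OE-labelled library and 1 in the control-labelled library. At this depth a gene at 0 may have up to 3 counts. Fabp4, which macrophages also express, was at 44.1 CPM in the Pc4-OE-labelled library and 10.5 CPM in the control-labelled one. The part of cells with Fabp4 in the values of the fatty acid genes was not tested.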

How the data were processed

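Poly(A)-selected RNA (TruSeq stranded mRNA kit, per the labels' protocols) of 1 library labelled Pc4-OE and 1 labelled control was used. The authors deposited 1 table of raw read counts by gene, made with STAR 2.4.1c and featureCounts on mm10, per the submitters' processing notes. The annotation behind the counts is not given in the sources used here, nor is the strand setting or the treatment of reads with several positions. Symbols were matched exactly.

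Library sizes were scaled by TMM (edgeR 4.0.16) over all 24061 rows. The ratio was taken without a pseudocount, with a Clopper-Pearson 95% interval of the 2 counts (scipy 1.17.1), which covers counting error only. At 500 counts summed, a ratio of 1 between equal libraries has an interval from 0.836 to 1.20, and at 5000 counts from 0.946 to 1.06. A gene was called at 1.5-fold or 2-fold when its ratio passed that limit and its interval excluded 1. No p-value was computed, since 1 library a label gives no replicate error. The ratio interval and the 1.5-fold rule were tested on simulated counts that held counting error only, with known library sizes. Scaling and the neighbour, motif and shared-sequence steps were not tested in this way.

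Positions came from RefSeq GRCm38.p6 by Entrez ID, exon lengths and shared 50-base windows from GENCODE M21 and promoters from RefSeq. The members, lists and limits were chosen with earlier results of these data known. Named genes are the 29 members, Sub1, up to 3 genes each way of each path list past the 1.5-fold limit, and genes named for their role after their values were seen (Mbtps1, Mbtps2, Slc25a1, Acss2, Abca1, Nr1h2, Nr1h3, Ctsb and the fat cell markers). Some genes of these paths are not reported here.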

Additional observations from a re-analysis of the deposited data

How the results depend on the processing

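Library totals, median-of-ratios size factors, no count minimum, a minimum of 100 counts and a pseudocount of 0.5 CPM left all 4 counts of called genes as they were and moved no median beyond its interval. Under these settings 11.4% to 13.7% of measured genes were at least 1.5-fold lower. Leaving out Insig1, Mvk and Cyp51 on chromosome 5 and Sqle on chromosome 15 left 25 genes, with Srebf2, farther along chromosome 15, among them. Of these 25, 13 were at least 1.5-fold lower, against 13.2% of measured genes, and 3 at least 2-fold lower, against 4.02%. Both shares still held all measured genes of chromosomes 5 and 15. The next 2 alternatives were chosen after seeing the data. Scaling by the median of the 10 stem cell markers, whose interval ran from -0.93 to 0.22, shifted all genes by 0.13 on the log2 scale. Of the 29 genes, 12 were then at least 1.5-fold lower, against 8.80% of measured genes. At least 2-fold lower were 2 (Sqle and Fasn), against 2.76%. As before, 2 were at least 1.5-fold higher, against 23.3%. Scap alone was at least 2-fold higher, against 14.1% of measured genes, and Fdft1 stood at 0.13. Fdft1, whose interval holds 1, was the 1 gene of the 29 whose sign changed under any setting, also with library totals (0.04). Leaving out the 7 genes that share over 10% of their windows or exon bases with other genes (Hmgcs1, Idi1, Fdps, Fdft1, Tm7sf2, Acaca and Scap) left 22 genes. Of these, 11 were at least 1.5-fold lower and 1, Insig2, at least 1.5-fold higher, against 13.2% and 18.8% of measured genes. These 2 alternatives changed only the scale of all genes or the list of genes counted. No paired analysis was possible because there is 1 library per label, and no library could be left out. Depth limits Idi1 most, on 255 counts summed.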

Other observations

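Glycerolipid genes that use the products of fatty acid synthesis were mixed. Of 11 genes, 4 passed the 1.5-fold limit upward and 0 downward (Pc4-OE over control), against 18.8% and 13.2% of measured genes. The median log2 ratio of the 11 was 0.10. Lpin2, a phosphatidate phosphatase, had 553 counts in the Pc4-OE-labelled library and 312 in the control-labelled one, 1.78-fold higher (1.55 to 2.06). Chka, choline kinase, was 1.70-fold higher (1.55 to 1.88), and Lpin1, a phosphatase related to Lpin2, 1.62-fold, a log2 ratio of 0.70 (0.58 to 0.81).

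Mitochondrial fatty acid oxidation had a median log2 ratio of 0.11 over 11 genes. Past the 1.5-fold limit, 1 was higher and 1 lower, against 18.8% and 13.2% of measured genes. Acadl, the long-chain acyl-CoA dehydrogenase, had 57.5 CPM in the Pc4-OE-labelled library and 32.7 CPM in the control-labelled library, 1.76-fold higher (1.54 to 2.02). Acadm, the medium-chain enzyme, had 81.8 CPM in the Pc4-OE-labelled library and 126 CPM in the control-labelled one, 1.54-fold lower (1.42 to 1.69). Fibroblast markers had a median log2 ratio of 1.37 and macrophage markers one of 2.20 in the same libraries, and their part in these values was not tested.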
